A study of Mus musculus with 15 samples.

Results

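The cholesterol and fatty acid synthesis genes followed here are 30 of the 24015 genes in the count tables, taken by name from the 2 lipid pathways. They fall into a sterol arm of 18 enzymes, a group of 4 regulators and transport genes (Insig1, Srebf1, Srebf2 and Stard4) and a fatty acid arm of 8 enzymes. Of the 30, 29 passed the filter on low counts. The remaining gene, Hmgcs1, which encodes the synthase that makes HMG-CoA, was listed at 0 in all 15 libraries and gives no value below.

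Cells build cholesterol from acetyl-CoA through mevalonate, the isoprenoids, squalene and lanosterol, and build fatty acids from the same acetyl-CoA. Both routes are driven by the SREBP transcription factors, which are held in the membrane of the endoplasmic reticulum and released by cleavage when sterols run low. SREBP-2 (Srebf2) acts mainly on the sterol genes and SREBP-1 (Srebf1) mainly on the fatty acid genes, while Insig1, itself a target of these factors, encodes a protein that keeps them in place. Cultured fibroblasts are a classical model of this feedback, since serum lipoproteins supply them with cholesterol.

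The libraries came from mouse embryonic fibroblasts (MEFs) of strain c57bl/6, either WT (Nsd2(+/+)) or NSD2 KO (Nsd2(-/-)), grown in medium with 10% donor bovine serum. NSD2 is a methyltransferase of histone H3. Naive cells were sampled without interferon (0 h) or after 2 h with IFNβ at 100 units/ml, a type I interferon. Pretreated cells had 3 h of IFNβ, were washed, spent 24 h without it, and were sampled then (0 h) or after another 2 h of IFNβ. The 8 groups were therefore WT naive 0 h, WT naive 2 h, WT pretreated 0 h, WT pretreated 2 h and the same 4 for KO, with 2 libraries each except KO naive 2 h, which has 1. The labels give neither the number of embryos or lines behind each genotype nor the time that naive cells spent in culture. The effect of NSD2 therefore cannot be told apart from other differences between the WT and KO cells, nor the effect of pretreatment from washing and time.

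Library totals ran from 17170845 to 44116418 gene counts. Levels are given as CPM of the gene counts, scaled by TMM factors (trimmed mean of M values), and changes as log2 values from an edgeR quasi-likelihood fit over all 15 libraries, with a gene called at an adjusted p below 0.05. The scaling matters because 2 abundant RNAs, Rn45s and Lars2, took 10.6% to 29.4% of the gene counts, and under 20% in 3 libraries (WT naive 0 h replicate 1, WT pretreated 2 h replicate 1 and KO pretreated 0 h replicate 2). Whsc1, the symbol for Nsd2 in these tables, was still counted in KO cells (95.6 to 110 CPM, against 108 to 146 CPM in WT), and a single value for the gene cannot check the knockout label where a deletion covers some exons. Fibroblast markers summed to 7981 CPM or more in every library. Marker lists of macrophage, epithelium, endothelium, skeletal muscle, and liver and yolk sac summed to at most 5.47 CPM.

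Per kilobase of annotated exon, and averaged over all libraries, Scd2 had the highest level of the 30 at 219 CPM per kb. The stearoyl-CoA desaturase encoded by Scd2 was followed by the sterol enzymes Fdps at 179 and Msmo1 at 129 CPM per kb. Acly and Sqle stood next at 81.5 and 81.3 CPM per kb. This order is that of the mean over all 15 libraries, and neighbours in it can change places between the genotypes. Dhcr7, which encodes the last reductase of the cholesterol pathway, was the lowest of the 29 that passed, at 3.16 CPM per kb. Some of these genes share sequence with others. Of the 50-base words in the transcripts, 39.1% of those of Acat2 were shared with Acat3, 26.2% of those of Fdps with other genes (mostly Gm43738), 29.2% of those of Acaca with Gm5182 and 17.7% of those of Idi1 with Gm13502. Fdps overlaps Gm43738 on the same strand over 77.4% of its exon bases. Gm43738, Gm5182 and Gm13502 are not among the genes of the count tables, and Acat3 averaged 0.708 CPM. What the sharing did to the counts was not tested. Fdft1 overlaps Ctsb on the opposite strand over 20.9% of its exon bases, and the strand setting of the counting is not given in the sources used here.

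The sterol genes of WT cells stood higher 24 h after interferon was washed off than in naive cells. Those of KO cells, which started higher, changed less and mostly downward. The question here was which state an earlier interferon treatment leaves behind, read at 0 h in pretreated against naive cells. In WT cells 23 of the 29 members rose, where 24% of all 13802 tested genes were called, 12.6% higher and 11.4% lower. The median change was 0.40 on the log2 scale over the members and -0.0036 over all tested genes. The sterol arm contributed 16 of its 17 tested enzymes, with a median of 0.46. The regulators contributed 3 of 4 and the fatty acid arm 4 of 8, with medians of 0.36 and 0.18. In 25 members both pretreated libraries lay above both naive ones, as in 28.4% of all tested genes. Without the TMM factors this held for 18 members and for 5.99% of all tested genes. In bulk RNA, a change in the share of cells that express a gene and a change in RNA per cell cannot be told apart.

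Idi1, the isomerase that makes the isoprenoid building block dimethylallyl pyrophosphate, changed most. Its level was 72.6 and 74.2 CPM in the WT naive libraries and 154 and 151 CPM in the WT pretreated ones, a 2.09-fold rise (log2 1.06 ± 0.047 SE, edgeR adjusted p = 8.5e-16). In KO cells it stood at 161 and 151 CPM before and 181 and 176 CPM after (log2 0.20 ± 0.044, edgeR adjusted p = 0.0014). The groups did not overlap in either genotype, and the naive KO libraries were already level with the pretreated WT libraries.

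Acat2, the cytosolic thiolase that opens the sterol route, rose from 38.2 and 34.8 CPM to 65.8 and 74.3 CPM in WT cells (log2 0.92 ± 0.065, edgeR adjusted p = 1.5e-11). The KO libraries held 77.9 and 80.9 CPM before and 85.2 and 88.0 CPM after, which was not called (edgeR adjusted p = 0.14). Msmo1, a methylsterol oxidase, went from 151 and 163 CPM to 244 and 246 CPM in WT cells (log2 0.65 ± 0.050, edgeR adjusted p = 8.5e-11), with all KO values at 0 h between 302 and 334 CPM. Lss, the cyclase that makes lanosterol, rose from 56.7 and 56.9 CPM to 85.4 and 89.7 CPM in WT cells (log2 0.62 ± 0.053, edgeR adjusted p = 6.0e-10). Its KO values lay between 133 and 140 CPM on both sides. In these 3 genes the WT groups were apart and the KO groups sat above both of them.

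The other called sterol enzymes rose in WT cells by 0.29 (Pmvk) to 0.63 (Nsdhl) on the log2 scale. They cover the route from Mvk, Pmvk and Mvd in the mevalonate section through Fdps, Fdft1 and Sqle to Cyp51, Tm7sf2, Nsdhl, Hsd17b7, Sc5d and Dhcr7 after lanosterol. The calls of Dhcr7 and Tm7sf2 were lost without WT naive 0 h replicate 2 (edgeR adjusted p of 0.11 and 0.073), and without WT pretreated 0 h replicate 1 for Dhcr7 (0.18) and replicate 2 for Tm7sf2 (0.12). Ebp, a sterol isomerase late in the route, was the tested sterol enzyme that was not called. Its libraries read 40.8 and 37.7 CPM before and 44.7 and 43.4 CPM after (log2 0.16 ± 0.058, edgeR adjusted p = 0.052). Without WT naive 0 h replicate 1, 17 of 17 sterol enzymes were called higher, with a median of 0.52, so Ebp's place depended on that library.

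Among the regulators, Insig1 rose from 78.3 and 80.0 CPM to 123 and 126 CPM in WT cells (log2 0.66 ± 0.050, edgeR adjusted p = 7.9e-11). Stard4, a carrier of cholesterol between membranes, rose from 24.2 and 24.0 CPM to 34.5 and 31.5 CPM (log2 0.45 ± 0.061, edgeR adjusted p = 1.8e-06). Srebf2 rose from 109 and 99.6 CPM to 126 and 125 CPM (log2 0.26 ± 0.056, edgeR adjusted p = 0.00092). Srebf1 was not called, with 56.1 and 51.3 CPM before and 54.1 and 51.8 CPM after (log2 -0.03 ± 0.062, edgeR adjusted p = 0.76). The 2 SREBP genes thus differed in their calls in WT cells, although the difference between them was not tested.

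The fatty acid arm was split by step. The 4 called genes were those that make the saturated chain. Fasn, the fatty acid synthase, rose from 435 and 415 CPM to 688 and 663 CPM in WT cells (log2 0.67 ± 0.046, edgeR adjusted p = 1.4e-11). Elovl6, an elongase of saturated chains, rose from 42.3 and 39.5 CPM to 68.0 and 62.2 CPM (log2 0.66 ± 0.056, edgeR adjusted p = 7.2e-10). Acaca, the carboxylase that makes malonyl-CoA, and Acly, the source of cytosolic acetyl-CoA, rose by 0.35 ± 0.041 and 0.29 ± 0.043 on the log2 scale. The 4 desaturase genes were not called: Scd1 changed by 0.08, Scd2 by -0.06, Fads1 by 0.00 and Fads2 by 0.05 on the log2 scale, each with an SE under 0.05. Scd2 illustrates this with 1080 and 1091 CPM in naive and 1025 and 1054 CPM in pretreated WT libraries.

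**Figure D1:**
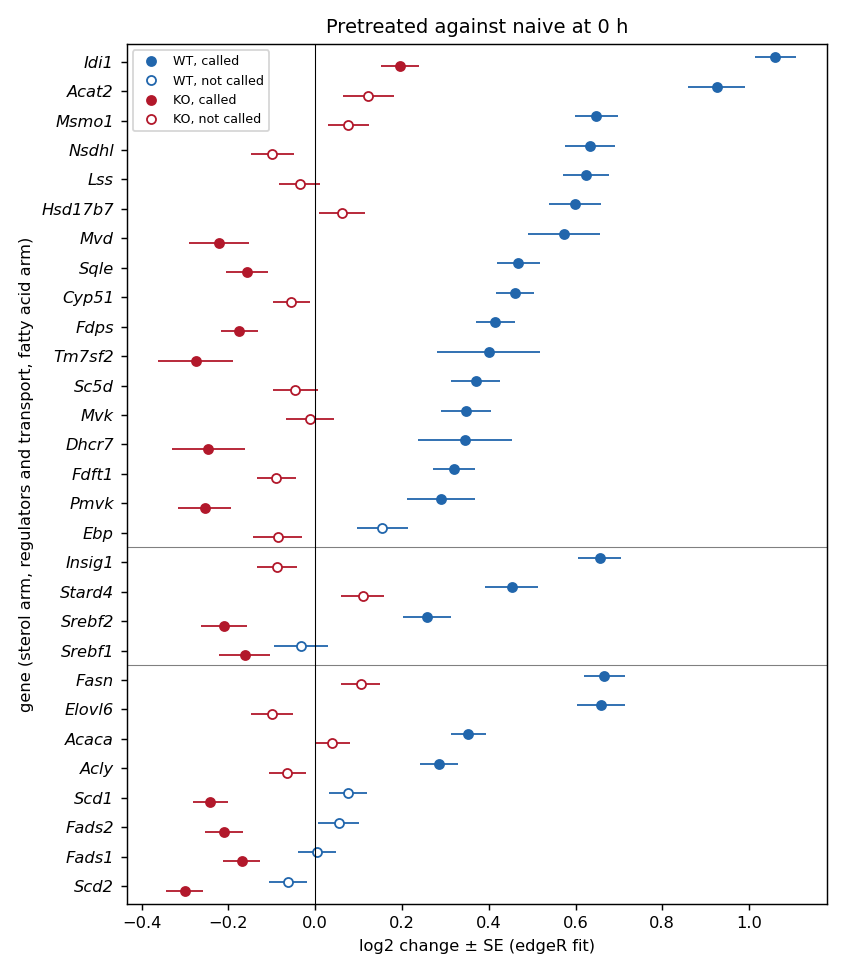
Change of the 29 tested genes between pretreated and naive cells at 0 h, as log2 change with its SE on the horizontal axis and genes on the vertical axis, grouped as sterol arm, regulators and transport, and fatty acid arm. Blue points are WT and red points KO, filled where edgeR called the change. The WT points of the sterol arm lie between 0.16 and 1.06 and the KO points between -0.28 and 0.20.

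In KO cells the same comparison gave 13 calls, of which 12 were lower and 1, Idi1, was higher, where 21.7% of all tested genes were called, 11.1% higher and 10.6% lower. The falls were small. Among sterol enzymes Pmvk fell by 0.26 and Fdps by 0.17 on the log2 scale, and Mvd, Sqle, Tm7sf2 and Dhcr7 by 0.16 to 0.28. The fatty acid arm fell in its desaturases: Scd2 by 0.30 (1751 and 1769 CPM before, 1396 and 1462 CPM after), Scd1 by 0.24, Fads2 by 0.21 and Fads1 by 0.17. Srebf2 fell by 0.21 and Srebf1 by 0.16, while Insig1, at 212 and 203 CPM before and 192 and 199 CPM after, was not called. Fewer of all tested genes were called when any 1 of the libraries compared was left out, and the number of member calls in KO cells fell too. It was 7 without KO naive 0 h replicate 1, 8 without KO pretreated 0 h replicate 2 and 9 without either of the other libraries compared. The calls of Pmvk and the 4 desaturase genes held in each of these settings, and those of the other 8 each failed in at least 1 of them.

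The difference between the genotypes, KO change minus WT change, was tested directly. It was called for 26 of 29 members, each of them lower, where 3.22% of all tested genes were called, 1.71% higher and 1.51% lower. The median difference was -0.54 on the log2 scale over the members and 0.0014 over all tested genes. By arm it was called in 16 of 17 sterol enzymes (median -0.59), 3 of 4 regulators (median -0.41) and 7 of 8 fatty acid genes (median -0.32). Ebp, Fads1 and Srebf1 were not called. Without the 3 libraries low in Rn45s and Lars2, 22 members were called.

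Idi1 had the largest difference at -0.86 ± 0.064 (edgeR adjusted p = 1.0e-09). Mvd, which decarboxylates mevalonate pyrophosphate, and Acat2 followed, each with a difference of -0.80. Mvd illustrates opposite directions, since it rose from 21.4 and 21.4 CPM to 31.2 and 32.5 CPM in WT cells and fell from 66.2 and 58.3 CPM to 54.4 and 51.8 CPM in KO cells, where the call was lost without KO naive 0 h replicate 1 (edgeR adjusted p = 0.29) or KO pretreated 0 h replicate 2 (edgeR adjusted p = 0.16). Elovl6 differed by -0.76, Insig1 by -0.74, Nsdhl by -0.73 and Tm7sf2 by -0.68. The remaining sterol enzymes Lss, Sqle, Fdps, Dhcr7, Msmo1, Pmvk, Hsd17b7, Cyp51, Sc5d, Fdft1 and Mvk differed by -0.66 to -0.36. Srebf2 differed by -0.47 and Stard4 by -0.34. Fasn, Acly, Scd1, Acaca, Fads2 and Scd2 differed by -0.56 to -0.24. Leaving out 1 library ended the call of Mvk (WT naive 0 h replicate 1, edgeR adjusted p = 0.054), of Stard4 (WT naive 0 h replicate 1 or WT pretreated 0 h replicate 1, edgeR adjusted p up to 0.13) and of Dhcr7 (KO naive 0 h replicate 1, WT naive 0 h replicate 2 or WT pretreated 0 h replicate 1, up to 0.097). It also ended the call of Fads2 for 4 of the 8 libraries compared (replicate 1 of each of the 4 groups) and of Scd2 for 6 of 8 (all but WT pretreated 0 h replicate 1 and KO pretreated 0 h replicate 2).

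Genes of cell division moved with washout in both genotypes. Called higher were 12.6% of all tested genes in WT and 11.1% in KO cells, and 3.22% differed between the genotypes. Of 20 cell cycle genes, 19 rose in WT cells (median 0.38) and 19 in KO cells (median 0.30), and 1 of 20, Mybl2, differed between the genotypes (-0.39, edgeR adjusted p = 0.0069). Rrm2, a subunit of ribonucleotide reductase, rose by 0.55 in WT and by 0.42 in KO cells on the log2 scale. Mybl2, a cell cycle transcription factor, and Cdc6, which licenses replication origins, rose by 0.72 and 0.78 in WT cells. The summed level of the list went from 3024 to 3049 CPM up to 3878 to 3918 CPM in WT and from 3327 to 3339 CPM up to 3952 to 3990 CPM in KO cells. Its part in the rise of the sterol genes was not tested.

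Other lipid pathways were counted in the washout comparison too. Over all tested genes, 12.6% were called higher and 11.4% lower in WT cells, and 11.1% and 10.6% in KO cells. The genotype difference was called for 3.22%, 1.71% higher and 1.51% lower. Of 12 genes of fatty acid oxidation, the route that burns fatty acids, 7 fell in WT cells (median -0.18). They include Acadvl at -0.30 ± 0.060, Slc25a20 at -0.35 ± 0.087 and Acadm at -0.22 ± 0.055, an acyl-CoA dehydrogenase, the carnitine carrier and a second dehydrogenase. In KO cells Acadm fell by 0.30 and Pdk4 rose by 0.24. Of 10 genes that process SREBP or sense sterols, 3 fell and 1 rose in WT cells, and 1 rose in KO cells. Insig2 fell by 0.30 and Mbtps1, which encodes the first protease that cleaves SREBP, fell by 0.13. Of 17 further genes of lipid synthesis and sterol uptake, 6 rose and 1 fell in WT cells, and 5 differed between genotypes, each of them lower. Among these 5, Aacs, which activates acetoacetate, differed by -0.45 ± 0.084 (edgeR adjusted p = 0.0012).

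Promoters were searched for short elements, and 5 are shown as examples of members with and without the CCAAT box, called or not called in WT washout. Of the 30 genes, 23 matched a RefSeq promoter table of build GRCm38.p6, with 28 start sites. The 250 bases before each start were searched on both strands for CCAAT, the box bound by NF-Y, for GGGCGG, the GC box, for the E-box CACGTG and for TCACNCCAC, a sterol regulatory element. CCAAT was found in 67.9% of the member promoters, against 33.8% of all 32851 promoters in the table. It was present in 14 of 18 sterol arm promoters and 1 of 5 fatty acid arm promoters. GGGCGG was found in 75.0% of member and 32.7% of all promoters, CACGTG in 14.3% and 6.02%, and TCACNCCAC in 3.57% and 1.05%. The 1 member promoter with TCACNCCAC was that of Hmgcs1, which has no value in these libraries. The sequences below run from 5′ to 3′ and end at the base before the start site, with CCAAT or its complement ATTGG in capitals.
Idi1 (chr13:8885356-8885605, plus strand): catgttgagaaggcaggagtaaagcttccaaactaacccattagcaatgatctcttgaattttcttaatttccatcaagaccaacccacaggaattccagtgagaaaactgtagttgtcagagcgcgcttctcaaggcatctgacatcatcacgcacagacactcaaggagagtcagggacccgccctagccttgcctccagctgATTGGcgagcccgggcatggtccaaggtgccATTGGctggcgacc
Acat2 (chr17:12960726-12960975, minus strand): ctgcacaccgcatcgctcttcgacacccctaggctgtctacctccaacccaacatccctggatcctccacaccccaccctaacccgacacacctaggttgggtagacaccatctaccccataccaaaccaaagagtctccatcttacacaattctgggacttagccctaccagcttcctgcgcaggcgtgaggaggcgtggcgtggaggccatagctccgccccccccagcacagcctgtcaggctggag
Insig1 (chr5:28071162-28071411, plus strand): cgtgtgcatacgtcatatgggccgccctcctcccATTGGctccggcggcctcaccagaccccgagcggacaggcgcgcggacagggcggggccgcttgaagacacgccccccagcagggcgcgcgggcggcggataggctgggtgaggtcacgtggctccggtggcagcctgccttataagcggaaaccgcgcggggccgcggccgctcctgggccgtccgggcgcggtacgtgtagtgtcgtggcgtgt
Fasn (chr11:120824548-120824797, minus strand): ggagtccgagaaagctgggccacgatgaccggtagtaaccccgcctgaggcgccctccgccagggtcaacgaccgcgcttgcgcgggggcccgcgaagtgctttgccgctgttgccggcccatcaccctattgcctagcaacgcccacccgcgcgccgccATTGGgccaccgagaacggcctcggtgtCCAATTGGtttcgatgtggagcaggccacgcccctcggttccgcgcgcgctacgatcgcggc
Ebp (chrX:8193513-8193762, minus strand): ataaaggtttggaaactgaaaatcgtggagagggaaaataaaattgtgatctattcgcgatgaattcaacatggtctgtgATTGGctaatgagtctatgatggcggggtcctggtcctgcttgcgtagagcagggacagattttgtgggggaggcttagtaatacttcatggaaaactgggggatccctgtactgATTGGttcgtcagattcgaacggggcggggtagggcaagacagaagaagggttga
Idi1, with the largest change in WT washout, holds the box at 2 places and Acat2, with the next largest, does not hold it. Ebp holds it at 2 places and was not called, and Fasn holds it at 3, of which 1 pair overlaps. A match is a description of these letters and not of a bound site.

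The KO cells started from a higher level of nearly every member. In naive cells at 0 h, 28 of 29 members were higher in KO than in WT, where 67.1% of all tested genes were called, 34.3% higher and 32.7% lower. The median difference was 1.06 on the log2 scale over the members and 0.0094 over all tested genes. The sterol arm had a median of 1.11 and the fatty acid arm one of 0.73. This comparison and the WT washout comparison share the WT naive 0 h libraries. Ebp was again the exception, at 42.5 and 40.2 CPM in KO and 40.8 and 37.7 CPM in WT (log2 0.06 ± 0.058, edgeR adjusted p = 0.36).

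Fdps, which makes farnesyl pyrophosphate, stood at 379 and 369 CPM in KO and 145 and 150 CPM in WT naive libraries (log2 1.34 ± 0.045, edgeR adjusted p = 4.3e-21). Fdft1, the squalene synthase, stood at 210 and 198 CPM against 84.9 and 86.3 CPM, and Nsdhl, a sterol dehydrogenase, at 73.2 and 71.8 CPM against 26.9 and 28.0 CPM. Insig1 was higher by 1.39 ± 0.049, Stard4 by 1.49 ± 0.056, Srebf2 by 0.61 ± 0.055 and Srebf1 by 0.24 ± 0.060 on the log2 scale. For each of these genes the KO and WT libraries were apart with TMM factors. Without them those of Srebf1 overlapped, at 66.4 and 69.2 CPM in KO and 68.4 and 51.6 CPM in WT. In the fatty acid arm Elovl6 had the widest gap, with 130 and 127 CPM in KO and 42.3 and 39.5 CPM in WT (log2 1.64 ± 0.054, edgeR adjusted p = 1.8e-21). Scd1, a desaturase, was higher by 1.20 ± 0.042, Fads1 by 0.77 ± 0.043 and Fads2 by 0.77 ± 0.045. Acaca, Acly and Fasn were higher by 0.16, 0.17 and 0.29.

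After washout the gap was narrower. In pretreated cells at 0 h, 21 members were higher in KO and 5 were lower, with a median of 0.51, where 64.7% of all tested genes were called, 32.8% higher and 31.8% lower. The narrowing of the gap and the genotype difference of washout are the same quantity. The gap of Idi1 was 1.09 in naive and 0.22 in pretreated cells on the log2 scale, that of Insig1 1.39 and 0.65, and that of Fdps 1.34 and 0.75. The 5 genes lower in KO were Fasn at -0.27, Acly and Ebp at -0.18, Cyp51 at -0.17 and Acaca at -0.15, and the call of Ebp was lost without replicate 1 of either genotype (edgeR adjusted p up to 0.090). The widest gaps that remained were those of Stard4 at 1.15, Pmvk at 1.01, Tm7sf2 at 0.97, Elovl6 and Scd1 at 0.88 and Fdft1 at 0.84. Srebf2 was higher in KO by 0.14, a call lost without KO pretreated 0 h replicate 1 (0.03, edgeR adjusted p = 0.73) or WT pretreated 0 h replicate 2 (0.13, edgeR adjusted p = 0.092). Srebf1 was not called (0.11, edgeR adjusted p = 0.11), and was called without KO pretreated 0 h replicate 2 (0.17, edgeR adjusted p = 0.049).

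At 2 h, KO was set against WT in the same way. In naive cells at 2 h 25 members were higher and 1, Fasn, was lower, where 61.2% of all tested genes were called, 32.3% higher and 28.8% lower. In pretreated cells at 2 h 21 were higher and 6 were lower, where 66.3% of all tested genes were called, 35.6% higher and 30.7% lower. The medians over the members were 0.82 and 0.43. The 6 lower calls were 3 without KO pretreated 2 h replicate 2, and 4 without WT pretreated 2 h replicate 1 or without the 3 libraries low in Rn45s and Lars2. Acly and Sqle lost their calls in both leave-outs and Mvk in the first. Fdps was higher by 1.40 and 0.77, Fdft1 by 1.28 and 0.83, Nsdhl by 1.43 and 0.65, and Elovl6 by 1.58 and 0.79 in these 2 settings. Insig1 was higher by 0.84 in naive and stood level in pretreated cells at 2 h, with 124 and 122 CPM in KO and 131 and 116 CPM in WT, so that the libraries overlapped (log2 -0.01 ± 0.048, edgeR adjusted p = 0.83). Fasn, by contrast, was lower in KO by 0.33 and 0.36. Srebf2 was higher by 0.24 and 0.21, and Srebf1 was at -0.16 (not called) and 0.17. The first of these was called lower with Rn45s and Lars2 left out (-0.18, edgeR adjusted p = 0.038), without the 3 libraries low in them (-0.19, edgeR adjusted p = 0.015) and in a fit on the compared groups (-0.19, edgeR adjusted p = 0.0030). The last call was lost without KO pretreated 2 h replicate 1 (edgeR adjusted p = 0.12) or WT pretreated 2 h replicate 2 (edgeR adjusted p = 0.36).

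**Figure D2:**
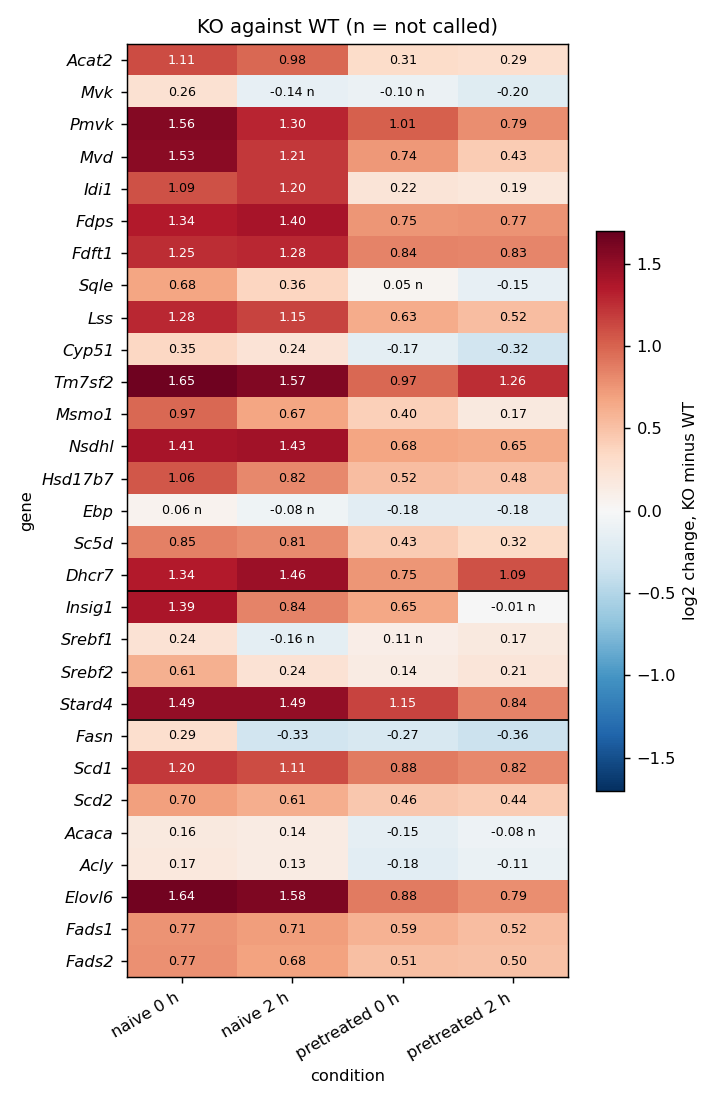
Difference between KO and WT for the 29 tested genes (rows, with lines between the sterol arm, the regulators and transport genes, and the fatty acid arm) in the 4 conditions (columns). Colour and printed number give the log2 change, KO minus WT, and n marks a change that edgeR did not call. The naive 0 h column is positive for every gene, from 0.06 for Ebp to 1.65 for Tm7sf2, and the pretreated 0 h column runs from -0.27 to 1.15.

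Markers of fat cells, which carry high lipid synthesis, also differed by genotype. The 8 adipocyte markers summed to 2.84 to 4.27 CPM in WT and 14.0 to 22.3 CPM in KO libraries. All 3 of them that passed the filter were higher in KO cells in naive cells at 0 h, but 5 of the 8 were below 1 CPM in every library and 1 was at 0 throughout. Across the groups, KO libraries held 20.4 to 22.3 CPM in naive and 19.9 to 21.2 CPM in pretreated cells at 0 h. The fibroblast markers summed to 12767 to 12838 CPM in WT and 8653 to 8748 CPM in KO naive cells at 0 h. The part of either list in the higher lipid gene levels was not tested.

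In their medians, the arms followed different courses over the 8 groups. Each gene was set on a log2 scale relative to the mean of the groups, and the median over an arm was taken in each library. The sterol arm stood at -0.73 in both WT naive 0 h libraries and at -0.67 and -0.64 in the WT naive 2 h libraries. It stood between -0.16 and -0.04 in the 4 WT pretreated libraries and between 0.29 and 0.44 in all 7 KO libraries. The sterol level of WT cells thus had 2 steps, naive and pretreated, with no overlap. The fatty acid arm of WT cells moved less, from -0.35 to -0.29 in naive to -0.29 to -0.18 in pretreated libraries. The highest naive library (-0.290) and the lowest pretreated one (-0.287) lay next to each other without overlap. In KO cells its median was 0.43 and 0.47 in naive 0 h, 0.30 in naive 2 h, 0.21 and 0.29 in pretreated 0 h, and 0.13 and 0.14 in pretreated 2 h libraries. These medians describe the members, and no test was made between the arms.

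**Figure D3:**
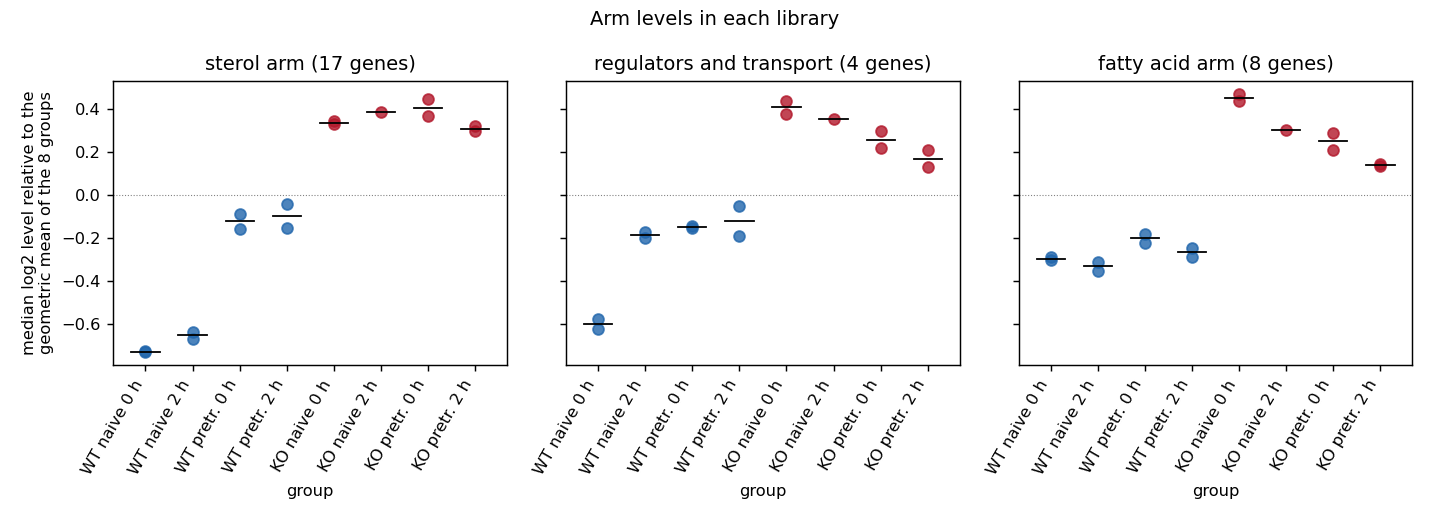
Median level of each arm in each library, as log2 relative to the geometric mean of the 8 groups (vertical axis), by group (horizontal axis). Each point is 1 library, blue for WT and red for KO, and the short line is the group mean. In the sterol arm the WT naive libraries lie at -0.73 to -0.64, the WT pretreated ones at -0.16 to -0.04 and the KO ones at 0.29 to 0.44.

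The first interferon treatment, 2 h against 0 h in naive cells, moved members in both directions. In WT cells 10 rose and 2 fell, where 30.6% of all tested genes were called, 15% higher and 15.6% lower. The median was 0.07 over the members and -0.02 over all tested genes. The balance of directions turned with the scaling. The WT libraries did not overlap in 16 members higher and 8 lower with TMM factors (30% and 33.7% of all tested genes), and in 3 higher and 12 lower without them (7.01% and 55.2%). In the sterol arm Hsd17b7, a sterol reductase, rose most, from 25.4 and 25.9 CPM to 44.5 and 40.6 CPM (log2 0.74 ± 0.061, edgeR adjusted p = 4.5e-11). Msmo1 rose by 0.44 ± 0.050, Cyp51, the lanosterol demethylase, by 0.31 ± 0.044 and Idi1 by 0.31 ± 0.049, while Sqle and Sc5d rose by 0.21 and 0.18. Among regulators Insig1 rose from 78.3 and 80.0 CPM to 115 and 113 CPM (log2 0.53 ± 0.050, edgeR adjusted p = 1.3e-09), Srebf2 by 0.29 and Srebf1 by 0.19. Fasn rose by 0.21 ± 0.047. The 2 genes that fell were Dhcr7, by 0.74 ± 0.126, and Scd2, by 0.21 ± 0.043. The call of Srebf1 was lost without WT naive 2 h replicate 1 or WT naive 0 h replicate 2 (edgeR adjusted p of 0.15 and 0.14), and that of Sc5d without any 1 of the 4 libraries (edgeR adjusted p up to 0.12).

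In KO cells, where the 2 h point is 1 library, 3 members rose and 11 fell, where 36.2% of all tested genes were called, 19.1% higher and 17.2% lower. The 2 h library lay outside both 0 h libraries in 9 members higher and 17 lower with TMM factors (41.6% and 44% of all tested genes), and in 2 higher and 27 lower without them (19.2% and 69.3%). Idi1 rose from 161 and 151 CPM to 209 CPM (log2 0.42 ± 0.053, edgeR adjusted p = 1.8e-07), Hsd17b7 rose by 0.50 and Cyp51 by 0.20. Dhcr7 fell by 0.63, Mvd by 0.43, Mvk, the mevalonate kinase, by 0.42, Pmvk by 0.28 and Lss by 0.19. Fasn fell from 511 and 529 CPM to 391 CPM (log2 -0.41 ± 0.058, edgeR adjusted p = 1.3e-06). Scd2 fell by 0.29, Scd1 by 0.19, Elovl6 by 0.20 and Fads1 by 0.15. Insig1, at 212 and 203 CPM before and 204 CPM after, and Srebf2 were not called. Srebf1 fell by 0.21, a call lost without KO naive 0 h replicate 2 (edgeR adjusted p = 0.11) and under DESeq2 (adjusted p = 0.062). The call of Fads1 was lost without either KO naive 0 h library (edgeR adjusted p up to 0.072) and that of Lss without replicate 1 (edgeR adjusted p = 0.059).

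The genotype difference of the first response was called for 7 members, each lower in KO, where 15.3% of all tested genes were called, 8.46% higher and 6.85% lower. Fasn differed by -0.62 ± 0.074 (edgeR adjusted p = 2.5e-07) and Insig1 by -0.56 ± 0.076 (edgeR adjusted p = 2.5e-06). These genes rose in WT cells and, in KO cells, Fasn fell and Insig1 was not called. Srebf1 differed by -0.41, Mvk by -0.40, Srebf2 by -0.37, and Msmo1 and Sqle by -0.31. The call of Msmo1 was lost without WT naive 0 h replicate 1 (edgeR adjusted p = 0.053). Dhcr7, Scd2 and Hsd17b7 were not called, with differences of 0.11, -0.09 and -0.25. All of these differences rest on the 1 library of KO naive 2 h cells.

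**Figure D4:**
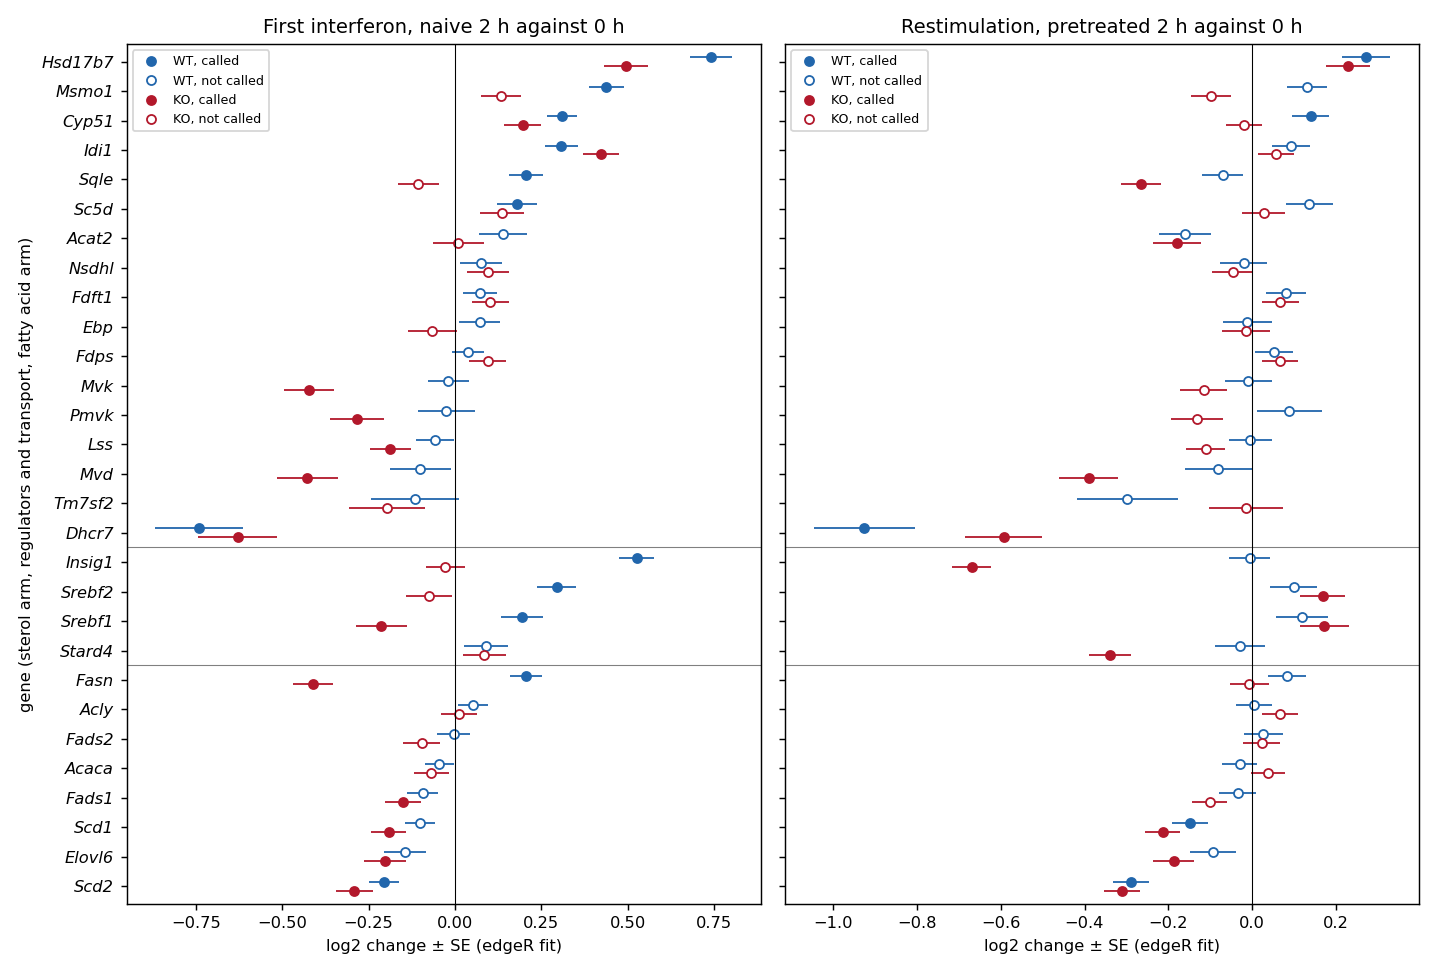
Change of the 29 tested genes after 2 h of interferon in naive cells (left) and pretreated cells (right), as log2 change with its SE (horizontal axes, which differ in range) by gene (vertical axis). Blue points are WT and red points KO, filled where edgeR called the change, and KO naive 2 h is 1 library. Dhcr7 lies between -0.93 and -0.59 and Hsd17b7 between 0.23 and 0.74 in all 4 comparisons, while Insig1 lies at 0.53 in the first WT comparison and -0.67 in KO restimulation.

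Restimulation, 2 h against 0 h in pretreated cells, gave calls in WT cells for a share of the members near that of all tested genes. There were 2 calls higher and 3 lower (17.2% of the tested members), where 22.7% of all tested genes were called, 12.2% higher and 10.5% lower. The libraries did not overlap in 9 members higher and 5 lower with TMM factors (27.1% and 29.9% of all tested genes), and in 1 higher and 5 lower without them (13% and 27.3%). Dhcr7 fell from 9.97 and 9.09 CPM to 4.62 and 5.48 CPM (log2 -0.93 ± 0.120, edgeR adjusted p = 5.9e-07). Scd2 fell from 1025 and 1054 CPM to 850 and 851 CPM (log2 -0.29 ± 0.044, edgeR adjusted p = 7.0e-06) and Scd1 fell by 0.15. Hsd17b7 rose by 0.27 and Cyp51 by 0.14. Insig1 was not called, with 123 and 126 CPM before and 131 and 116 CPM after, nor were Srebf1 (0.12) and Srebf2 (0.10). The number of calls was 8 without WT pretreated 2 h replicate 2, where Srebf1 was also called (0.21, edgeR adjusted p = 0.025). The calls of Cyp51 and Scd1 were lost without WT pretreated 2 h replicate 1 (edgeR adjusted p of 0.31 and 0.091), and that of Scd1 also without either WT pretreated 0 h library (edgeR adjusted p of 0.10 and 0.074).

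In KO cells restimulation gave 3 calls higher and 9 lower, where 31.5% of all tested genes were called, 17.9% higher and 13.6% lower. Insig1 fell most, from 192 and 199 CPM to 124 and 122 CPM (log2 -0.67 ± 0.047, edgeR adjusted p = 5.2e-13). Dhcr7 fell from 16.2 and 15.9 CPM to 10.6 and 10.7 CPM (log2 -0.59 ± 0.091, edgeR adjusted p = 4.7e-06). Stard4 fell from 72.8 and 74.0 CPM to 57.0 and 59.0 CPM (log2 -0.34 ± 0.050, edgeR adjusted p = 2.5e-06). For all 3 genes the libraries before and after were apart. Mvd fell by 0.39, Sqle, the squalene epoxidase, by 0.27, Acat2 by 0.18, Scd2 by 0.31, Scd1 by 0.21 and Elovl6 by 0.19. Hsd17b7 rose by 0.23, and Srebf1 and Srebf2 by 0.17 each. The calls of Srebf1, Srebf2 and Acat2 were lost without KO pretreated 2 h replicate 1 (edgeR adjusted p of 0.18, 0.23 and 0.24) or KO pretreated 0 h replicate 2 (0.25, 0.45 and 0.12).

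The genotype difference of restimulation was called for 3 members, each lower in KO, where 9.03% of all tested genes were called, 6.53% higher and 2.51% lower. The 3 were 10.3% of the tested members, near the share of all tested genes called either way. Insig1 differed by -0.66 ± 0.067 (edgeR adjusted p = 1.8e-08), Stard4 by -0.31 ± 0.078 (edgeR adjusted p = 0.0074) and Msmo1 by -0.23 ± 0.068 (edgeR adjusted p = 0.027). Srebf1 and Srebf2 were not called. Without the 3 libraries low in Rn45s and Lars2, fewer of all tested genes were called, and so too of the members. The count was 1, Insig1, without the 3 libraries low in Rn45s and Lars2, and 6 without WT pretreated 2 h replicate 2. Stard4 was lost without WT pretreated 0 h replicate 2 (edgeR adjusted p = 0.078), and Msmo1 without WT pretreated 2 h replicate 1, KO pretreated 0 h replicate 2 or KO pretreated 2 h replicate 2 (edgeR adjusted p of 0.17 to 0.23).

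Rnf139, a ubiquitin ligase of the sterol sensing machinery and no member of the 30, rose with interferon in KO cells. In WT cells its 2 h libraries lay above the 0 h ones in pretreated cells, and the naive libraries overlapped. It stood at 48.8 to 57.1 CPM in WT naive 0 h, 49.8 to 54.3 CPM in WT naive 2 h, 49.0 to 49.9 CPM in WT pretreated 0 h and 59.5 to 59.9 CPM in WT pretreated 2 h libraries. In KO cells it stood at 46.7 to 47.5 CPM, 78.8 CPM, 44.9 to 45.6 CPM and 84.6 to 89.7 CPM in the same order. Its genotype difference was 0.74 ± 0.095 for the first treatment (edgeR adjusted p = 8.6e-07) and 0.68 ± 0.085 for restimulation (edgeR adjusted p = 7.9e-07). Scap, the escort of SREBP, differed by -0.31 in the first treatment and Erlin2 by 0.25. Of the 10 genes on this list, 3 were called in the first genotype difference and 1, Rnf139, in that of restimulation. The shares of all tested genes called were 15.3% and 9.03%.

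**Figure D5:**
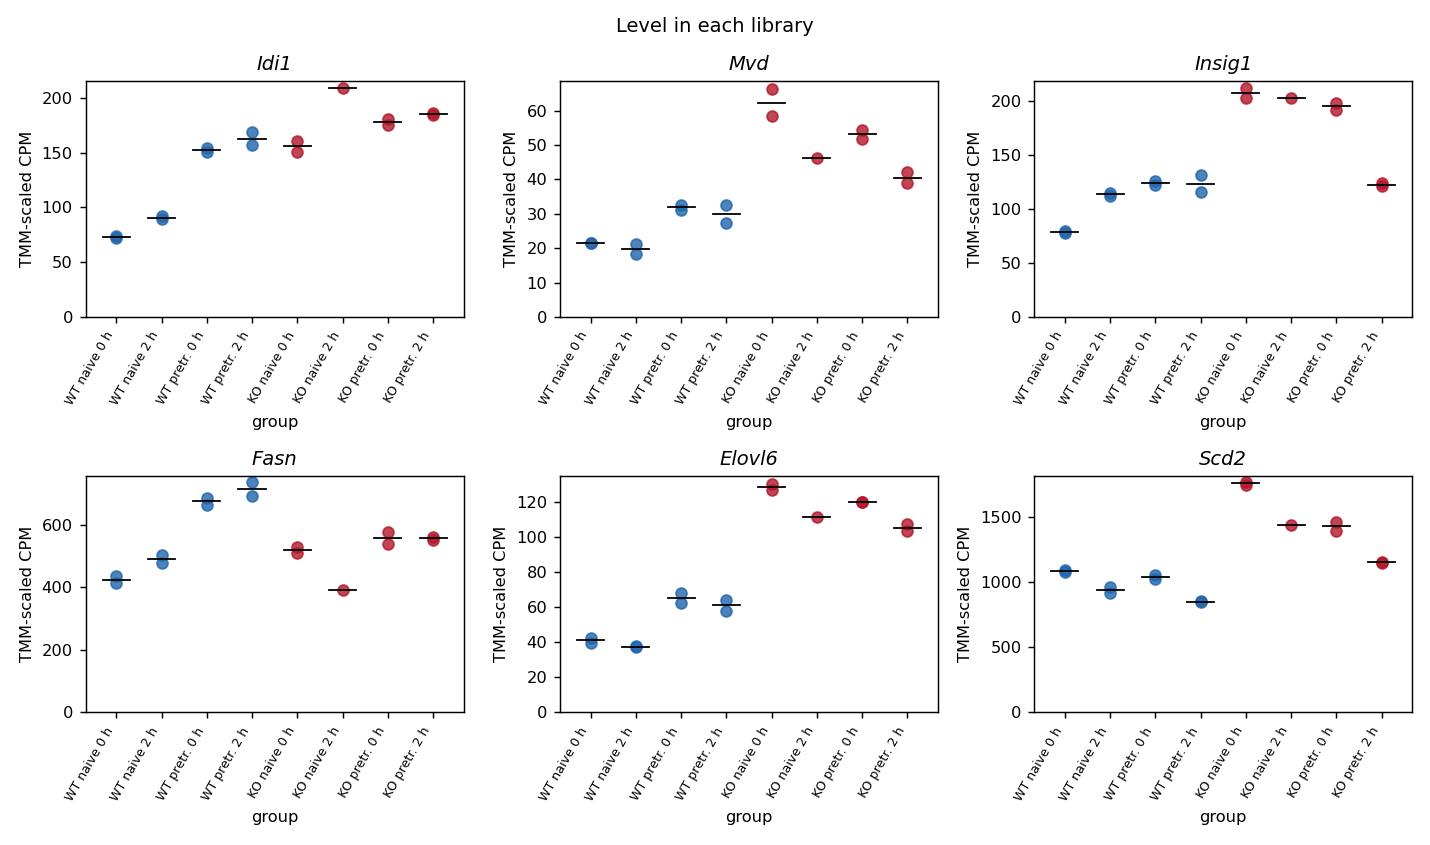
Level of 6 genes in each library, in TMM-scaled CPM from 0 (vertical axes), by group (horizontal axes). Each point is 1 library, blue for WT and red for KO, and the short line is the group mean. Idi1, Mvd, Elovl6 and Fasn are higher in WT pretreated than in WT naive libraries, Scd2 is not, and Insig1 in KO cells drops to 122 and 124 CPM in pretreated 2 h libraries.

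Pretreated and naive cells were also compared after 2 h of interferon in both. In WT cells 18 members were higher in pretreated cells and 1, Scd2, was lower, with a median of 0.33, where 25% of all tested genes were called, 13.2% higher and 11.8% lower. The call of Scd2 was lost without WT naive 2 h replicate 2 (edgeR adjusted p = 0.18) or WT pretreated 2 h replicate 1 (edgeR adjusted p = 0.062). Idi1 stood at 89.3 and 92.2 CPM in naive and 169 and 157 CPM in pretreated libraries (log2 0.85 ± 0.047, edgeR adjusted p = 1.2e-14). Lss was higher by 0.68, Acat2 by 0.62 and Fdps by 0.43. Elovl6 was higher by 0.71, Fasn by 0.54, Acaca by 0.37 and Acly by 0.24, and Stard4 by 0.33. Insig1 was not called (0.12 ± 0.049, edgeR adjusted p = 0.067), and was called without WT pretreated 2 h replicate 2 (0.21, edgeR adjusted p = 0.0042). Srebf1 and Srebf2 were at -0.11 and 0.06, and neither was called, although Srebf1 was called lower without WT pretreated 2 h replicate 1 (-0.21, edgeR adjusted p = 0.034).

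In KO cells 4 members were higher in pretreated than in naive cells at 2 h and 10 were lower, with a median of -0.13, where 18.8% of all tested genes were called, 11.2% higher and 7.61% lower. Insig1 was lower by 0.73 ± 0.056 on the log2 scale, with 204 CPM in the 1 naive library and 124 and 122 CPM in the pretreated ones (edgeR adjusted p = 1.6e-10). Sqle and Stard4 were at -0.32, Cyp51 at -0.27 and Nsdhl at -0.24. Scd2 and Scd1 were at -0.32 and -0.26. Fasn was higher, with 391 CPM in the naive library and 562 and 551 CPM in the pretreated ones (log2 0.51 ± 0.058, edgeR adjusted p = 2.5e-07), followed by Mvk at 0.29, Srebf1 at 0.22 and Acaca at 0.15. Srebf2 was not called. Without KO pretreated 2 h replicate 1 the calls of Mvk, Srebf1 and Acaca were lost (edgeR adjusted p of 0.089, 0.16 and 0.18), and that of Acaca also without replicate 2 (0.058).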

How the data were processed

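Raw counts of reads per gene symbol were deposited by the authors, 1 table of 24015 genes per library, for 15 libraries. Libraries were made with the NuGEN Ovation SP Ultralow system and sequenced as paired ends (HiSeq2000), per the labels' protocols. The tools bcl2fastq 2.15, STAR 2.5.2b and HTSeq and the build mm9 are named in the submitters' processing notes. Neither annotation nor strand setting is given in the sources used here, so overlapping genes are uncertain. The 5 summary lines that HTSeq adds were not used, and between 35.1% and 41.3% of uniquely aligned reads fell in no gene.

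From these counts, edgeR 4.0.16 (R 4.3.3) computed TMM factors of 0.895 to 1.22 and kept 13802 genes at a filterByExpr minimum count of 10. A quasi-likelihood model with 1 coefficient for each of the 8 groups (7 residual degrees of freedom) gave 15 comparisons, with Benjamini-Hochberg adjustment over all kept genes. The lone KO naive 2 h library borrows its spread from the other groups. The fit was tested on simulated counts, where the share of false calls ran above the level set by the threshold, most of all in the genotype difference of washout. Replicate pairs differed by more than sampling noise: with Rn45s and Lars2 left out, their chi-square per degree of freedom was still 1.93 to 4.81. Separate cultures or animals are not named in the labels, and the p-values then measure a spread between libraries that may be technical.

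The members and lists were chosen with earlier results of these data known. The text names, per comparison, up to 4 called members of each arm with the smallest p, always Insig1, Srebf1 and Srebf2, all called members of the genotype differences, and up to 3 called genes of each other list. Where the rule took a gene not reported here, the next by p was named. Other named members and Rnf139's library values were chosen after their values were seen. Exon lengths, overlaps and shared 50-base words came from GENCODE vM21 (GRCm38), and promoters from RefSeq (GRCm38.p6). No coordinates were converted between builds. Alternatives were RLE size factors, DESeq2 1.42.0, no filter, a fit limited to the groups compared, a replicate block, Rn45s and Lars2 left out, the 3 libraries low in them left out, and each library left out in turn.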

Additional observations from a re-analysis of the deposited data

Results flagged for a closer look

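Each result here is a genotype difference, KO change minus WT change, that edgeR's test of the difference called at an adjusted p below 0.05. Values are on the log2 scale, and all are lower in KO.

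For pretreated against naive cells at 0 h, 26 members differed, where 3.22% of all tested genes were called. In the mevalonate and isoprenoid section of the sterol arm the differences were -0.80 for Acat2, -0.36 for Mvk, -0.55 for Pmvk, -0.80 for Mvd, -0.86 for Idi1 and -0.59 for Fdps. From squalene onwards they were -0.41 for Fdft1, -0.63 for Sqle, -0.66 for Lss, -0.52 for Cyp51, -0.68 for Tm7sf2, -0.57 for Msmo1, -0.73 for Nsdhl, -0.54 for Hsd17b7, -0.42 for Sc5d and -0.59 for Dhcr7. Among regulators and transport genes they were -0.74 for Insig1, -0.47 for Srebf2 and -0.34 for Stard4. In the fatty acid arm they were -0.56 for Fasn, -0.76 for Elovl6, -0.31 for Acaca, -0.35 for Acly, -0.32 for Scd1, -0.24 for Scd2 and -0.26 for Fads2.

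For the first interferon treatment, where KO naive 2 h is 1 library, 7 members differed, and 15.3% of all tested genes were called. These were Fasn at -0.62, Insig1 at -0.56, Srebf1 at -0.41, Mvk at -0.40, Srebf2 at -0.37, Msmo1 at -0.31 and Sqle at -0.31.

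For restimulation 3 members differed, namely Insig1 at -0.66, Stard4 at -0.31 and Msmo1 at -0.23. They were 10.3% of the tested members, near the 9.03% of all tested genes that were called.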

How the results depend on the processing

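The tally covers 173 results of single members. They are up to 4 calls with the smallest p of each arm per comparison, all called genotype differences, and Insig1, Srebf1 and Srebf2. Picking by smallest p favours results that hold. Of the 173, 144 kept their side of the threshold under every alternative that was run, and 29 crossed it under at least 1. Calls of other named members are outside the tally, and some were lost, such as that of Sc5d in WT first interferon. No result in the tally changed direction where it was called in the main fit or in the alternative. A change of direction was not counted where neither fit called the gene. The number of members called stayed within 1.5 times its value under the alternatives in 12 of the 15 comparisons. In KO washout it was 13, and 7 to 9 with 1 library left out. In WT restimulation it was 5, 8 with Rn45s and Lars2 left out and 4 to 8 with 1 library left out. In the genotype difference of restimulation it was 3, 5 without the filter on low counts, 5 with a replicate block, 6 with Rn45s and Lars2 left out, 1 without the 3 libraries low in them and 2 to 6 with 1 library left out. The causes of these shifts were not tested. Where 1 library of a pair was left out, the spread of the lone library was taken from the other groups. Replicate numbers did not pair the libraries, since replicate differences of 2 groups correlated at -0.0185 to 0.0643 over genes. With the replicate number as a block, 24 members were called in WT washout, 13 in KO washout and 26 in their difference. The block also called Insig1 higher in WT pretreated against naive cells at 2 h (0.12, edgeR adjusted p = 0.043) and Srebf1 lower in KO against WT naive cells at 2 h (-0.20, edgeR adjusted p = 0.012). Leaving out either WT naive 0 h library left 21 to 24 calls in WT washout. Counts per library limit the precision least for Scd2 and most for Tm7sf2 and Dhcr7, which had as few as 78 and 93 counts.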

Other observations

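Genes that handle excess sterol were counted as a list of their own. Of 13 genes of LXR targets, efflux and oxysterols, 10 passed the filter. LXR is the receptor that turns on efflux when oxysterols rise. Soat1, which stores cholesterol as esters, rose with interferon in each of the 4 comparisons of 2 h against 0 h. It went from 101 to 103 CPM up to 192 to 196 CPM in WT naive libraries and from 123 to 127 CPM up to 230 CPM in KO naive libraries (log2 0.93 ± 0.044 and 0.88 ± 0.051, edgeR adjusted p of 1.5e-16 and 9.2e-15). In restimulation it rose by 0.74 ± 0.043 in WT and 0.62 ± 0.042 in KO cells.

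Abca1, the exporter of cholesterol, fell with washout in both genotypes, by 0.66 ± 0.127 in WT and by 1.01 ± 0.070 in KO cells on the log2 scale. Its level was 7.99 to 9.58 CPM in WT naive and 83.6 to 89.5 CPM in KO naive libraries at 0 h, and 5.21 to 6.30 CPM and 41.3 to 44.3 CPM after washout. Mylip, a ubiquitin ligase that lowers lipoprotein uptake, stood at 0.749 to 0.752 CPM in WT naive and 22.7 to 24.7 CPM in KO naive libraries at 0 h (log2 4.97 ± 0.137, edgeR adjusted p = 2.7e-23). The list as a whole was split, with 5 of its 10 tested genes higher and 4 lower in naive KO cells at 0 h (median 0.13). Of all tested genes 34.3% were higher and 32.7% lower there. In WT washout 2 were higher and 2 lower, where the shares over all tested genes were 12.6% and 11.4%. In KO washout 2 were higher and 5 lower, where these shares were 11.1% and 10.6%.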
